A study of Mus musculus with 6 samples.

Results

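The data describe 7 genes that adult astrocytes use to clear transmitter and to move water and small molecules: Slc1a2, Slc1a3, Glul, Aqp4, Gja1, Gjb6 and Aldh1l1. They were named as a list and not picked by a measured value, though earlier results of these data were known when the list was chosen. All 7 were present among the 18560 genes of the deposited count table, which gives gene symbols only. Their counts were read in each cluster of the whole olfactory bulb, in n13-AstrocyteLike, a cluster of the study's separate annotation of neurons, and in each of 6 libraries. Each library was the RNA of single cells dissociated from the olfactory bulbs of a pool of adult C57BL/6NJ mice, aged 14 weeks, with males in replicate 1 of each group and females in replicate 2. The occluded group had a plug in one nostril, and the study names the occluded side as the deprived sample. The trained group, kept short of water, learned to tell a rewarded odor from an unrewarded one. Both manipulations lasted 6 weeks. The labels give the control group no manipulation, and the study's text calls these controls naive mice in places but in another names the open side of occluded mice as the control. Some olfactory epithelium came along with the bulbs. The study asked how the cell types of the bulb differ and how olfactory input alters them.

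Astrocytes take up the glutamate that neurons release through the transporters GLT-1, encoded by Slc1a2, and GLAST, encoded by Slc1a3, and glutamine synthetase, encoded by Glul, turns it into glutamine that is handed back to neurons. Aqp4 encodes the water channel of the endfeet that astrocytes lay on blood vessels. Gja1 and Gjb6 encode the connexins of the gap junctions that couple astrocytes into a network, and Aldh1l1 encodes a folate enzyme that is widely used as a marker of all astrocytes. In the olfactory bulb, astrocyte processes surround the glomeruli, where sensory axons meet mitral and tufted cells, and olfactory ensheathing cells, a separate kind of glia, wrap those axons in the outer layer.

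The promoters of the 2 transporters are shown because Slc1a2 and Slc1a3, which do the same chemical work, had different patterns over the clusters. Each sequence holds the 250 bases before the transcription start, read 5′ to 3′ on the strand of the gene, from RefSeq in build GRCm38.p6. Capitals mark matches on either strand to TATAAA, to CCAAT or to GGGCGG, 3 short motifs common near starts of transcription.
Slc1a2, chr2:102706188-102706437, plus strand: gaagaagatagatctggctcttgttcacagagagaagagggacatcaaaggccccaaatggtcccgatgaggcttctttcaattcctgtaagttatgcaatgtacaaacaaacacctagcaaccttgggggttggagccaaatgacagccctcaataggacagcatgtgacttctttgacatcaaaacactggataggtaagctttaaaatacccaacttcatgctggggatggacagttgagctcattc
Slc1a3, chr15:8710808-8711057, minus strand: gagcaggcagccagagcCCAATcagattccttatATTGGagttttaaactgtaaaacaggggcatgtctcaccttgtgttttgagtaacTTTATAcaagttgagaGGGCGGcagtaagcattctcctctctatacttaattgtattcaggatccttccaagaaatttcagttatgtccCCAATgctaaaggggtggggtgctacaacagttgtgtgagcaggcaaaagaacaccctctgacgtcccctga
The Slc1a2 window held none of these motifs, and neither did it hold TTGGCA or ACAAAG, the other 2 motifs searched. The Slc1a3 window held CCAAT at 233, 216 and 72 bases before the start, TATAAA at 161 and GGGCGG at 145. Of 32851 promoters in the same table, 33.8% held CCAAT, 12.4% TATAAA, 32.7% GGGCGG, 12.3% TTGGCA and 16.5% ACAAAG. Both windows had a GC content of 44.8%, against a median of 52.4% over all promoters. Of the other members searched, the windows of Gja1 and Gjb6 also held none of the 5 motifs. That of Glul held CCAAT at 113 and 50 bases and GGGCGG at 33, and that of Aldh1l1 held CCAAT at 103 and 63 bases and GGGCGG at 45. A match describes letters only and is no binding site. The promoter of Aqp4 was not searched.

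The deposited annotation placed 51426 cells in 38 clusters, and the libraries held from 11841160 to 17065083 counts of unique molecular identifiers (UMIs, 1 for each captured molecule whatever its length). Cluster names are those of the deposited annotation. The study's supplement numbers several clusters differently: matched by cell number, its Astro2 is the cluster called Astro3 here and its Astro3 the one called Astro2, and some microglial, mesenchymal, ensheathing and neuronal clusters also carry other numbers there. Of these cells, 5246 were in the 3 astrocyte clusters: 3130 in Astro1, 336 in Astro2 and 1780 in Astro3. Astro3 was shallow, with a median of 708.5 UMIs a cell against 1851.5 in Astro1 and 1859.5 in Astro2. A list of 12 astrocyte markers that left out the 7 genes summed to 15764 CPM (counts per 1000000 UMIs of that cluster and library) in Astro1, 9327 in Astro3 and 5735 in Astro2, with no marker at 0 in Astro1. The mesenchymal cluster Mes1, at 7329, and the mural cluster Mural2, at 6381, lay above Astro2 on that list. The names of the 17275 trained cells open with the other trained library's label, so the library column of the annotation was followed. Counts of Xist and Ddx3y in astrocytes matched the sex of every pool under it. Of 49931 barcode sequences 1461 occurred in more than 1 library, and of 5232 among astrocytes 14 did. Each library held 654 to 1086 astrocytes. Astro2 had 73 and 56 cells in controls, 57 and 82 in occluded and 33 and 35 in trained libraries. Clusters were built from the same counts, so the levels below are descriptions and carry no test.

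Slc1a2 was highest in astrocytes, in the order Astro1, Astro3, Astro2. In Astro1 it stood at 2070 and 2385 CPM in control replicates 1 and 2, 2476 and 2288 in occluded, and 2730 and 2552 in trained, with a mean of 2417 ± 227 (SD, n = 6 libraries). Every Astro1 library lay above every library of Astro3, which averaged 1517 ± 68.3, and Astro3 lay above Astro2, at 611 ± 125. Below Astro2 no neighbours in the order were further apart than the larger of their SDs: the neuronal cluster N6 had 422 ± 65.1, the endothelial cluster EC2 387 ± 89.0, and oligodendrocyte precursors 275 ± 59.1. The 3 astrocyte clusters held 59.6% ± 2.32 of all Slc1a2 UMIs in 10.2% of the cells.

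Slc1a3 was the most abundant of the 7 in Astro1 and Astro2, and it spread to more kinds of glia than Slc1a2. Its level in Astro1 was 3268 and 3411 CPM in controls, 3696 and 3263 in occluded and 3423 and 3889 in trained libraries, with a mean of 3492 ± 250. Astro2 followed at 2544 ± 241 and Astro3 at 1393 ± 173, so for this transporter Astro2 stood above Astro3. The ensheathing cluster OEC4 had 889 ± 74.7 CPM and Mes1 had 713 ± 104. Astrocytes held 50.7% ± 0.67 of Slc1a3 UMIs and ensheathing cells 25.4%, where ensheathing cells held 11.99% of Slc1a2 UMIs. Among the neuronal subclusters, n02-PGC-1, a periglomerular cluster, led with 740 and 733 CPM in controls, 775 and 549 in occluded and 644 and 737 in trained, averaging 696 ± 84.2. It was followed by the granule cell cluster n03-GC-1, at 343 ± 32.5, and n04-Immature, at 241 ± 8.47. Against the granule cell cluster n11-GC-5 in the same library, n02-PGC-1 was 12.6 ± 4.04 times as high for Slc1a3 and 2.37 ± 0.42 times for Slc1a2, and both ratios exceeded 1 in 6 of 6 libraries.

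Glul was the least particular to astrocytes. Its highest means were in the ensheathing clusters OEC5, at 3730 ± 317 CPM, and OEC4, at 3480 ± 241, followed by Astro1 at 3080 ± 199, OEC2 at 2964 ± 175, OEC3 at 2729 and Astro3 at 2702 ± 353. OEC4 ran from 3126 to 3777 and Astro1 from 2810 to 3228, and within a library OEC4 was above Astro1 in 6 of 6. Mature oligodendrocytes (MyOligo) had 2390 ± 279 CPM, 8.56 ± 2.13 times the level of their precursors in the same library and above them in 6 of 6. No cluster of the 38 fell under 235 CPM, the mean in N10. Ensheathing cells held 51.4% of Glul UMIs, astrocytes 17.8% ± 1.21 and neurons 10.6%. Astro2 was the astrocyte cluster with the least, at 991 ± 209. With mitochondrially encoded genes left out of the totals, Astro3 stood at 3507 and Astro1 at 3491, so the order of these 2 clusters depended on that total.

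Aqp4 was the most concentrated of the 7, with 80.5% ± 2.65 of its UMIs in astrocytes and 3.76% in ensheathing cells. In Astro1 it had 815 and 981 CPM in controls, 1144 and 1151 in occluded and 981 and 953 in trained libraries, a mean of 1004 ± 127. The 2 occluded libraries were the highest, while trained and control libraries overlapped. Astro3 had 446 ± 82.3 and Astro2 209 ± 68.5, and only 1 further cluster, EC2, reached 100 CPM, with 120 ± 49.3. EC2 was shallow, with a median of 750.5 UMIs a cell, and in it Aqp4 was 9.12 times, Slc1a3 9.65 times, Gja1 5.08 times and Slc1a2 4.32 times as high as in EC1, the other endothelial cluster. In EC2, 0.623% of cells held a UMI of all 7 genes, against 10.7% in Astro1, whose cells were deeper. In Astro3, an astrocyte cluster that was shallow like EC2, this share was 0.0562%, below that of EC2. In EC1 it was 0%. Whether astrocyte fragments took part in these EC2 values was not tested.

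Of the 2 connexin genes, Gja1 was highest in Astro1, at 1939 and 1797 CPM in controls, 2062 and 2090 in occluded and 2263 and 2215 in trained, a mean of 2061 ± 173. Every library of the other groups stood above both controls. Next came the mesenchymal cluster Mes2, at 1257 ± 364, and the ensheathing clusters OEC2, at 1176 ± 54.1, and OEC4, at 1056 ± 41.0. Astro2, at 941 ± 93.9, and Astro3, at 790 ± 141, were below these, and ensheathing cells as a whole held 51.9% of Gja1 UMIs against 34.4% ± 2.72 for astrocytes.

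Gjb6 was highest outside astrocytes. In Mes1 it stood at 603 and 782 CPM in controls, 983 and 726 in occluded and 595 and 749 in trained, averaging 740 ± 142, and in Mes2 it averaged 646 ± 104. These mesenchymal clusters did not separate from each other, with Mes1 higher in 3 of 6 libraries. Astro1 had 448 ± 80.7, and Mes1 exceeded Astro1 in 6 of 6 libraries, by 1.70 ± 0.42 times, and Mes2 did so in 5 of 6. Because mesenchymal cells numbered 883 in all, they held 25.7% ± 6.65 of Gjb6 UMIs and astrocytes 49.9% ± 5.45. Astro3 had 142 ± 56.1, and Astro2, at 52.5 ± 15.1, was no higher than the ensheathing cluster OEC4.

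Aldh1l1 was the lowest of the 7. It had 131 ± 11.2 CPM in Astro1, 87.7 ± 14.1 in Astro3 and 41.5 ± 29.3 in Astro2, and the ensheathing cluster OEC1 came next with 37.1 ± 7.86. Only Astro1 reached 100 CPM. Astrocytes held 49.2% ± 2.00 of its UMIs. With 500 UMIs drawn from every cell, 5.24% of Astro1 cells still showed an Aldh1l1 UMI, against 77.9% for Slc1a3.

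**Figure D1:**
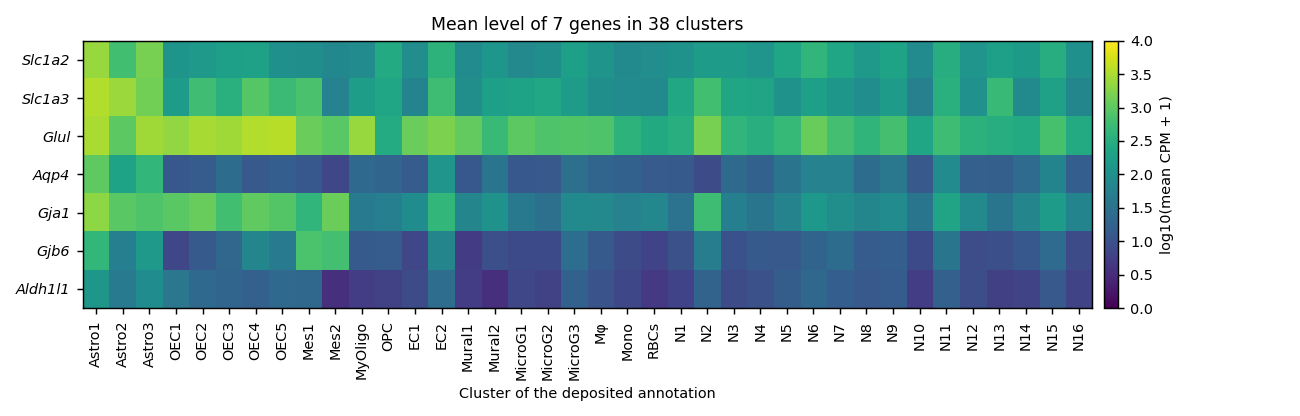
Color gives log10(mean CPM + 1) over 6 libraries for each of the 7 genes (rows) in the 38 clusters of the deposited annotation (columns). Aqp4 and Aldh1l1 are each brightest in the Astro columns at the left, though Aldh1l1 is the dimmest of the 7 genes there. Glul is bright in nearly every column, Gja1 extends over the OEC columns and Gjb6 peaks in Mes1 and Mes2.

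The 7 genes also differed in how many clusters reached 100 CPM. This level was reached in 38 of 38 clusters by Glul, in 28 by Slc1a2 and by Slc1a3, in 16 by Gja1, in 4 by Aqp4 and by Gjb6, and in 1 by Aldh1l1. For comparison, shares were taken in the microglial cluster MicroG1, where RNA from other cells and its own expression cannot be told apart. Thinned to 500 UMIs from a median depth of 2336, its cells showed Slc1a2 in 3.16%, Slc1a3 in 9.37%, Aqp4 in 0.63%, Gja1 in 1.52%, Gjb6 in 0.51% and Aldh1l1 in 0.13% of cells, but Glul in 37.0%. Among neurons, n02-PGC-1 cells showed Slc1a3 in 30.1% at the same thinned depth. In Astro1 at the same thinned depth the shares were 64.3% for Slc1a2, 77.9% for Slc1a3, 69.9% for Glul, 34.2% for Aqp4, 63.8% for Gja1 and 19.8% for Gjb6. Before thinning they were 93.3%, 97.0%, 89.9%, 68.6%, 92.3% and 51.9%, and 20.9% for Aldh1l1. No cell was left out by thinning.

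The mix of the 7 genes also differed between the 3 astrocyte clusters. In Astro1, Slc1a3 took 27.7% of the UMIs of the 7 genes, Glul 24.4%, Slc1a2 19.1%, Gja1 16.3%, Aqp4 7.95%, Gjb6 3.53% and Aldh1l1 1.04%. In Astro2, Slc1a3 alone took 47.3% and Slc1a2 11.3%, and in Astro3 Glul took 38.1% and Slc1a2 21.5%. Astro3 cells differed from Astro1 in other ways too: their median mitochondrial share was 20.2 to 25.1% by library against 10.0 to 12.8%, and markers summed to 2991 CPM for oligodendrocytes against 833, 5696 for ensheathing cells against 4063 and 1318 for neurons against 504. Among the ensheathing markers, Fabp7 by itself averaged 11.4 in Astro1 and 10.5 in Astro2 on a log2 CPM scale. It thus made up most of the ensheathing sum in these clusters. The part of all these in the Astro3 mix was not tested. The ratio of Slc1a2 to Slc1a3 was thus 0.69 ± 0.06 in Astro1, 0.24 ± 0.05 in Astro2 and 1.10 ± 0.13 in Astro3. Relative to Astro2, Astro1 was 8.90 ± 2.18 times as high for Gjb6, 5.56 ± 2.98 for Aqp4, 4.04 ± 0.56 for Slc1a2, 3.19 ± 0.48 for Glul, 2.21 ± 0.27 for Gja1 and 1.38 ± 0.18 for Slc1a3. For Aldh1l1, with 23 UMIs in Astro2, the ratio of the mean levels was 3.15, and the mean of the ratios, 5.51 ± 5.57, was carried by control replicate 1, where Astro2 had 1 UMI. All these ratios exceeded 1 in 6 of 6 libraries, and that of Slc1a3 was the smallest of the 7. At 500 UMIs, 69.6% of Astro2 cells showed Slc1a3, and 27.1% showed Slc1a2, 3.87% Aqp4 and 2.98% Gjb6. At that depth an Astro1 cell showed a mean of 3.35 of the 7 genes, an Astro3 cell 2.14 and an Astro2 cell 1.81.

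**Figure D2:**
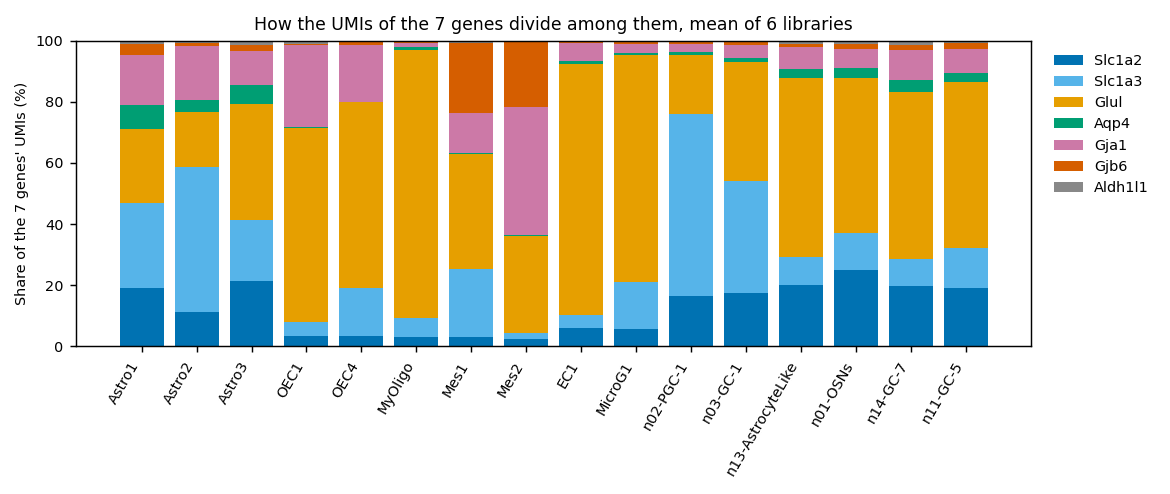
Each bar divides the summed UMIs of the 7 genes among them, as the mean percent over 6 libraries, in clusters of the whole bulb (left) and of the annotation of neurons (right). Slc1a3 fills 47.3% of the Astro2 bar and 59.5% of n02-PGC-1, Glul fills 87.6% of MyOligo, and Gjb6 fills 22.9% of Mes1.

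Over the 38 clusters, the levels of Slc1a2 and Aqp4 were the most alike of the 21 pairs of members, with a Pearson correlation of log2(mean CPM + 1) of 0.92, and those of Glul and Aqp4 the least, with 0.25. Slc1a2 and Slc1a3 correlated at 0.69. The clusters share libraries and their totals, so these values are descriptions. Among 5444 genes with a cluster mean of at least 100 CPM, the closest to Slc1a2 after Aqp4 were Cldn10 and Ntsr2, at 0.92 each. Slc1a3 was closest to Etnppl, at 0.83, Tmem47, at 0.82, and Ntsr2, at 0.77. Aqp4 was closest to Slc6a11, a GABA transporter, at 0.96, and Cldn10, at 0.94. Gja1 lay nearest to F3, at 0.95, with Pygb and Fam107a at 0.91 each. Glul went with Pla2g16 and Hadh, both 0.89, and Plin3, at 0.88. Gjb6 went with Pdpn and Islr, both 0.80, and Efemp1, at 0.77. Aldh1l1 went with Acsbg1, at 0.88, and with Hrsp12 and Aldoc, both 0.85.

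Other genes of the same tasks were read from 5 lists of 47 genes in all. In Astro1, the GABA transporter Slc6a11 stood at 3113 ± 170 CPM, the sodium pump subunit Atp1b2 at 1358 ± 47.9, the bicarbonate transporter Slc4a4 at 1280 ± 97.2 and the potassium channel Kcnj10 at 396 ± 33.8. Mlc1, an endfoot protein, had 802 ± 67.3, and the glutamine transporter Slc38a3 had 612 ± 42.1. Of the other listed genes, Slc6a9, a glycine transporter, had 454 CPM in Astro1, the glutamate dehydrogenase Glud1 400, the mitochondrial glutamate carrier Slc25a18 371, the endfoot adhesion protein Hepacam 367, the carbonic anhydrase Car2 364 and the potassium channel Kcnk1 341. The anchoring proteins Dmd, Dtna and Dag1, the amino acid transporters Slc7a11 and Slc1a4 and the potassium channel Kcnj16 lay between 127 and 212 CPM there, and Abat, which breaks down GABA, reached 111 in Astro3. Astro2 had 540 CPM of Slc6a11, while Mlc1 remained at 603 ± 86.6 there, and the glutamine transporter Slc38a1 was higher in Astro2, at 183 ± 60.9, than in Astro1, at 36.1 ± 7.70.

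The cluster named n13-AstrocyteLike held 2950 of the 21746 cells of the annotation of neurons. Its cells came mostly from N6 (2676 cells), 1202 of them were in trained replicate 1, their median depth was 656 UMIs, and their median mitochondrial share was 30.5%. Slc1a2 in n13 was 349 and 396 CPM in controls, 535 and 354 in occluded and 377 and 444 in trained, a mean of 409 ± 70.7. Glul was 1125 and 1038, 1386 and 1401, and 1071 and 1142 in the same order, a mean of 1194 ± 159, with the occluded pair highest. Slc1a3 had 178 ± 38.2, Gja1 141 ± 21.1, Aqp4 59.8 ± 32.9, Aldh1l1 23.6 ± 6.93 and Gjb6 20.5 ± 12.03.

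Against the 3 astrocyte clusters summed, in the same library, the level in n13 was 0.419 times for Glul, 0.201 for Aldh1l1, 0.194 for Slc1a2, 0.081 for Gja1, 0.069 for Aqp4 and 0.059 for Slc1a3 and Gjb6. The 7 genes thus differed in how far n13 lay below astrocytes. Within n13, Slc1a2 stood at 2.46 ± 0.93 times Slc1a3, where Astro1 had 0.69. The sensory neuron cluster n01-OSNs had the same order, with a ratio of 2.25 ± 0.61, and the granule cell cluster n14-GC-7 had 2.18 ± 0.83, whereas n02-PGC-1 had 0.28 ± 0.05. Compared with n01-OSNs in the same library, n13 was higher by 1.68 ± 0.24 times for Slc1a2 and 2.44 ± 0.46 times for Glul, each in 6 of 6 libraries. So it was by 1.64 ± 0.64 times for Slc1a3 and 2.56 ± 1.06 times for Gja1, also in 6 of 6. Compared with n14-GC-7, n13 was higher by 1.83 ± 0.73 times for Slc1a2, 1.79 ± 0.59 for Glul and 1.54 ± 0.32 for Slc1a3 in 6 of 6. For Aqp4, at 1.20 times, and Gja1, at 1.18 times, n13 was higher in 4 of 6.

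The markers in n13 were mixed, and the study itself counts this cluster among ambiguous neuronal cell types. The 12 astrocyte markers outside the 7 genes summed to 2742 CPM in n13, against 15764 in Astro1, and none was at 0. In the same cells the 6 oligodendrocyte markers summed to 5575 CPM, against 21231 in MyOligo. The 8 ensheathing cell markers summed to 5547, against 54594 in OEC4. The 8 neuron markers summed to 2658, against 14559 in N14, and the 6 sensory neuron markers to 2250, against 19284 in N5. Each list is set against the whole-bulb cluster where its sum was highest. The lists differ in their genes and in these highest levels, so their sums in n13 do not rank the cell types. After thinning to 500 UMIs, 16.4% of n13 cells showed Slc1a2, 8.98% Slc1a3, 41.4% Glul, 2.203% Aqp4 and 6.44% Gja1, and 2.41% showed at least 3 of the 7 genes, against 77.3% in Astro1. In n01-OSNs, at a median depth of 808.5 UMIs, the shares were 10.1%, 6.33%, 21.1%, 1.42% and 3.50%. In n14-GC-7, at 690 UMIs, they were 10.9%, 5.15%, 24.2%, 2.06% and 5.45%. The part of free RNA in these values was not tested.

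**Figure D3:**
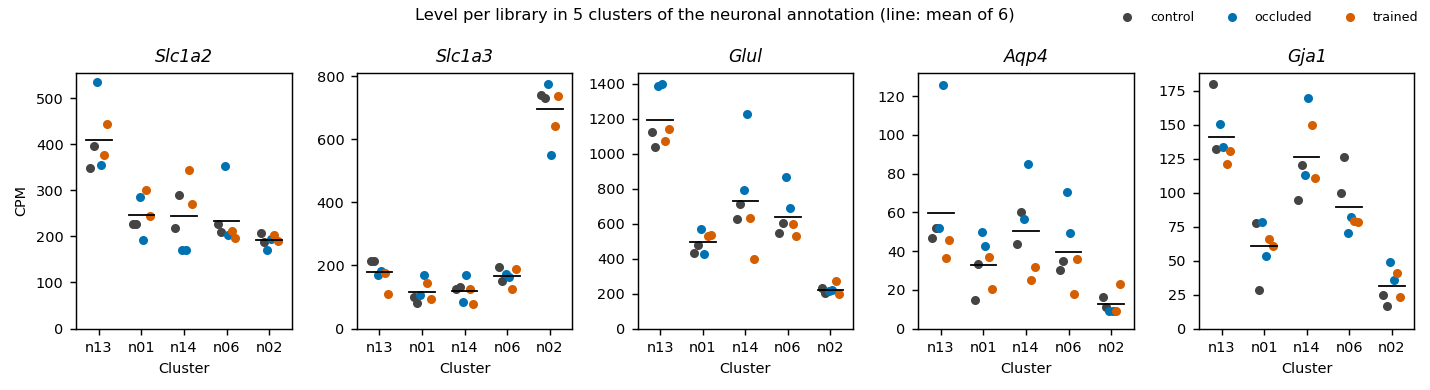
Points are CPM in each of 6 libraries for 5 of the genes in n13-AstrocyteLike and in n01-OSNs, n14-GC-7, n06 and n02-PGC-1, colored by group, with a line at the mean. Among these clusters n13 leads for Slc1a2 (mean 409) and Glul (mean 1194), overlaps n14 for Aqp4 and Gja1, and lies far below n02-PGC-1 for Slc1a3 (178 against 696).

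Astrocytes made up 9.75 to 10.4% of annotated cells in the 6 libraries. The difference from controls was 0.04 percentage points in occluded libraries and -0.24 in trained ones (exact permutation test, two-sided, p = 1 for both, and with 2 libraries against 2 no p under 0.333 is possible). The share of Astro1 among astrocytes was 61.5 and 57.8% in controls, 64.1 and 69.9% in occluded and 47.9 and 58.9% in trained, and that of the shallow Astro3 was 31.4 and 35.1%, 28.3 and 21.4%, and 49.1 and 35.8%. Astro2 took 7.14 and 7.07% in controls, 7.55 and 8.76% in occluded and 3.04 and 5.35% in trained libraries. Depth mattered here: among cells with at least 1000 UMIs, astrocytes were 10.4 and 9.80% of cells in controls and 8.86 and 8.84% in trained libraries, a difference of -1.23 percentage points, and Astro1 was 81.9 and 81.4% of astrocytes in controls, 78.7 and 85.2% in occluded and 85.6 and 86.3% in trained. The training difference in the Astro1 share thus went from -6.28 to 4.28 percentage points and the occlusion difference from 7.33 to 0.26. In bulk sums over astrocytes, fewer cells of one cluster and less RNA per cell cannot be told apart, so the groups were compared both in the sum and in each cluster.

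With olfactory deprivation, none of the 7 genes was called at an adjusted p under 0.05 (edgeR's quasi-likelihood test, Benjamini-Hochberg adjustment over all genes tested). In the summed astrocytes 0 of 7 were called, against 0.0191% of 10447 genes tested, and in Astro1 0 of 7, against 0.0104% of 9623. In Astro2, where Gjb6 and Aldh1l1 had too few counts to be tested, 0 of 5 were called against 0.0442% of 2261 genes, and in Astro3 0 of 7 against 0.0304% of 3293. At an unadjusted p under 0.05 the count was 1 of 7 in the sum and in Astro1, 1 of 5 in Astro2 and 0 of 7 in Astro3, beside 517, 460, 114 and 138 of all genes tested, and DESeq2 called 0 members in each. With olfactory training, 0 of 7 were called in the sum (0.0287% of all genes), 0 of 7 in Astro1 (0.166%), 0 of 5 in Astro2 (0.133%) and 0 of 7 in Astro3 (0.0304%), with 2, 3, 0 and 1 members under an unadjusted p of 0.05, beside 643, 694, 148 and 110 of all genes, and 0 called by DESeq2. The count of 2 in the sum was 4 by DESeq2, beside 127 of 16846 genes, and also 4 with no filter, in cells of at least 1000 UMIs and without mitochondrially encoded genes, beside 904, 688 and 646 genes. It was 0 without control replicate 1, 1 without either occluded library and 3 without either trained one. Between trained and occluded astrocytes 0 of 7 were called against 0.22% of genes, with 1 under an unadjusted p of 0.05, beside 942 of all genes, and 0 by DESeq2. The replicates are pools, so these p-values measure the spread between pools, which within each group is also that between a male and a female pool.

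Aqp4 had the smallest p of the members under deprivation in the sum, Astro1 and Astro2, with opposite signs in the latter 2. In Astro1 the log2 fold change of occluded against control libraries was 0.34 ± 0.12 (SE, edgeR, adjusted p = 0.911), and both occluded libraries lay above both controls. Without control replicate 1 this value was 0.18, and without control replicate 2 it was 0.50. In Astro2, Aqp4 stood at 308 and 230 CPM in controls, 198 and 102 in occluded and 239 and 178 in trained, from 45 and 25, 25 and 14, and 15 and 13 UMIs, and its log2 fold change was -0.91 ± 0.31 (edgeR, adjusted p = 0.459). Without occluded replicate 2 this Astro2 value was -0.51, and without occluded replicate 1 it was -1.42. The difference between the 2 clusters in the effect of occlusion was 1.29 ± 0.31 on the log2 scale (edgeR interaction term, adjusted p = 0.0772), at place 4 of 8400 genes by p. None of the 7 passed in this test, against 0.0357% of genes, with 1 member under an unadjusted p of 0.05, beside 324 of all genes, and DESeq2 called 0, with an adjusted p for Aqp4 of 1.0. The Aqp4 value rested on single libraries: without control replicate 1 it was 0.86 and without occluded replicate 2 it was 0.92, each with an adjusted p of 1, and without control replicate 2, occluded replicate 1 or trained replicate 2 it passed, with adjusted p of 0.024, 0.0455 and 0.0315. A fit without a control or occluded library leaves 1 pool, of 1 sex, in that group, which is assumed to vary like the other groups.

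Other markers differed along with Aqp4 in occluded Astro1 libraries. The 8 genes of a reactive astrocyte list summed to 306 and 307 CPM in controls, 402 and 513 in occluded and 393 and 317 in trained, with none at 0. The 5 red blood cell genes summed to 197 and 62.7 CPM in controls, 210 and 667 in occluded and 50.0 and 60.9 in trained, with Alas2 at 0. The 8 neuron markers, at 581 and 513 CPM in controls and 487 and 422 in occluded libraries, and the 6 sensory neuron markers, at 438 and 419 against 354 and 334, were lower in both occluded libraries, with none at 0. The 6 markers of oligodendrocyte precursors were lower as well, at 325 and 345 against 290 and 310. So were the 5 mesenchymal markers, at 27.5 and 15.4 against 12.8 and 15.2, and the 5 mural markers, at 211 and 193.6 against 166 and 193.1. The median mitochondrial share of Astro1 cells was 10.8 and 11.5% in controls and 10.0 and 10.2% in occluded libraries. In Astro2 the reactive list went the other way, from 1346 and 1704 CPM in controls to 1131 and 724 in occluded libraries, with Lcn2, Osmr and Timp1 at 0. Also lower in both occluded Astro2 libraries were the 8 ensheathing cell markers, at 1550 and 1917 CPM against 2795 and 2451, the neuron markers, at 411 and 359 against 554 and 645, and the precursor markers, at 39.5 and 51.2 against 54.7 and 55.3, with Olig2 at 0. Gfap, on both the reactive and the astrocyte list, differed between Astro1 and Astro2 in the effect of occlusion by 1.47 ± 0.20 (edgeR interaction term, adjusted p = 5.92e-09). Fabp7, which made up most of the ensheathing sum in both clusters, differed by 0.77 ± 0.18 (edgeR interaction term, adjusted p = 0.0316). The median mitochondrial share in Astro2 was 8.50 and 8.61% in controls and 7.10 and 8.14% in occluded libraries. The part of these lists and of the mitochondrial share in the Aqp4 values and in the difference between the 2 clusters was not tested.

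The remaining members were closer between occluded and control Astro1 cells. The log2 fold change was 0.08 ± 0.11 for Slc1a2, 0.04 ± 0.10 for Slc1a3, 0.16 ± 0.10 for Glul, 0.14 ± 0.10 for Gja1, -0.04 ± 0.13 for Gjb6 and 0.11 ± 0.15 for Aldh1l1 (edgeR, each with an adjusted p of 0.996). Glul in Astro1 had 2837 and 2810 CPM in controls, against 3173 and 3228 in occluded and 3225 and 3203 in trained, so that the 4 manipulated libraries lay above both controls.

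Gjb6 had the smallest p of the members under training in the sum, Astro1 and Astro3. In Astro1 it had 378 and 430 CPM in controls, 445 and 351 in occluded and 552 and 533 in trained, and both trained libraries stood above the other 4. The log2 fold change of trained against control was 0.41 ± 0.13 in Astro1 (edgeR, adjusted p = 0.389), and 0.45 ± 0.13 in the sum (edgeR, adjusted p = 0.387). In Astro3, where Gjb6 stood at 114 and 132, 94.2 and 91.0, and 223 and 200 CPM in the same order of groups, it was 0.78 ± 0.29 (edgeR, adjusted p = 0.997). Trained against occluded libraries it was 0.47 ± 0.13 in the sum (edgeR, adjusted p = 0.161), at place 94 of 10447 genes. The difference did not pass the threshold in any of these comparisons, although the groups did not overlap. In both trained Astro3 libraries the 6 oligodendrocyte markers were higher, at 3207 and 3532 CPM against 2450 and 3076 in controls, as were the 6 precursor markers, at 200.3 and 223 against 191 and 183. The endothelial markers, at 337 and 284 against 389 and 511, and microglia markers, at 307 and 256 against 338 and 356, were lower. In the summed astrocytes, marker lists also separated both trained from both occluded libraries. Ensheathing cell markers were lower, at 3518 and 3729 CPM against 3866 and 4777, as were precursor markers, at 200.3 and 220 against 256 and 270. The reactive list was lower too, at 416 and 415 against 480 and 562. Oligodendrocyte markers, at 1440 and 1291 against 968 and 1249, and mesenchymal markers, at 19.2 and 25.5 against 12.7 and 12.2, were higher. The part of these lists in the Gjb6 values was not tested.

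The other members had smaller positive estimates in trained against control Astro1 libraries, and none of them passed the threshold. For Aqp4 the 2 groups overlapped. Gja1 had a log2 fold change of 0.25 ± 0.10 (edgeR, adjusted p = 0.588) and Slc1a2 of 0.23 ± 0.11 (edgeR, adjusted p = 0.672), which was 0.11 without control replicate 1 and 0.37 without control replicate 2. Glul had 0.17 ± 0.10, Slc1a3 0.12 ± 0.10, Aldh1l1 0.14 ± 0.15 and Aqp4 0.09 ± 0.12, with adjusted p of 0.743, 0.863, 0.905 and 0.92 (edgeR). With 1 library left out Slc1a3 ranged from 0.01 without trained replicate 2 to 0.22 without trained replicate 1, and Aldh1l1 from 0.00079 without control replicate 1 to 0.28 without trained replicate 1. Aqp4 turned to -0.06 without control replicate 1 and was 0.26 without control replicate 2. All 7 values were positive with every library in the fit, and 6 of 7 without control replicate 1. The median was 0.17 over the members and 0.00 over all genes tested when no library was left out. Over the members it was 0.11 without control replicate 1 and 0.26 without control replicate 2. The ensheathing cell markers in Astro1 summed to 4593 and 4143 CPM in controls, 3830 and 4835 in occluded and 3538 and 3439 in trained. In both trained libraries the 12 astrocyte markers outside the 7 genes were higher, at 16216 and 16306 CPM against 15050 and 15646 in controls, as were the 6 microglia markers, at 235 and 235 against 197 and 196, and the 6 markers of oligodendrocyte precursors were lower, at 206 and 232 against 325 and 345. The 6 endothelial markers were lower too, at 240 and 262 CPM against 267 and 339, as were the red blood cell genes, while the reactive list was higher, with the values given above. The part of these lists in the members' values was not tested. The difference between Astro1 and Astro2 in the effect of training was called for 0 of 7 members, against 0.0119% of genes, with 1 member under an unadjusted p of 0.05, beside 423 of all genes, and 0 called by DESeq2. That member was Slc1a3, at 0.36 ± 0.17 (edgeR, adjusted p = 0.951), with 0.60 without trained replicate 1 and 0.25 without trained replicate 2. The trained Astro2 libraries behind it held only 33 and 35 cells. In Astro2 the ensheathing cell markers were also lower in trained libraries, at 1194 and 1071 CPM. One of these markers, Fabp7, which made up most of their sum in both clusters, was itself called lower under training. Its log2 fold change was -0.59 ± 0.11 in Astro1 and -1.29 ± 0.22 in Astro2 (edgeR, adjusted p = 0.0267 and 0.000116). The 12 astrocyte markers were higher in trained Astro2 libraries, at 6829 and 6122 CPM against 5351 and 5777 in controls. Precursor markers were higher there too, at 111 and 82.4 CPM, and endothelial markers, at 143 and 178 against 280.2 and 212, and sensory neuron markers, at 414 and 316 against 499 and 838, were lower. Mural markers in Astro2 were lower too, at 63.7 and 137 CPM against 164 and 184. Mesenchymal markers were higher, at 15.9 and 13.7 against 0 and 9.21, with Lum at 0. The median mitochondrial share there was 10.1 and 8.80% in trained libraries and 8.50 and 8.61% in controls. The part of these lists and of the mitochondrial share in the Slc1a3 difference was not tested.

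**Figure D4:**
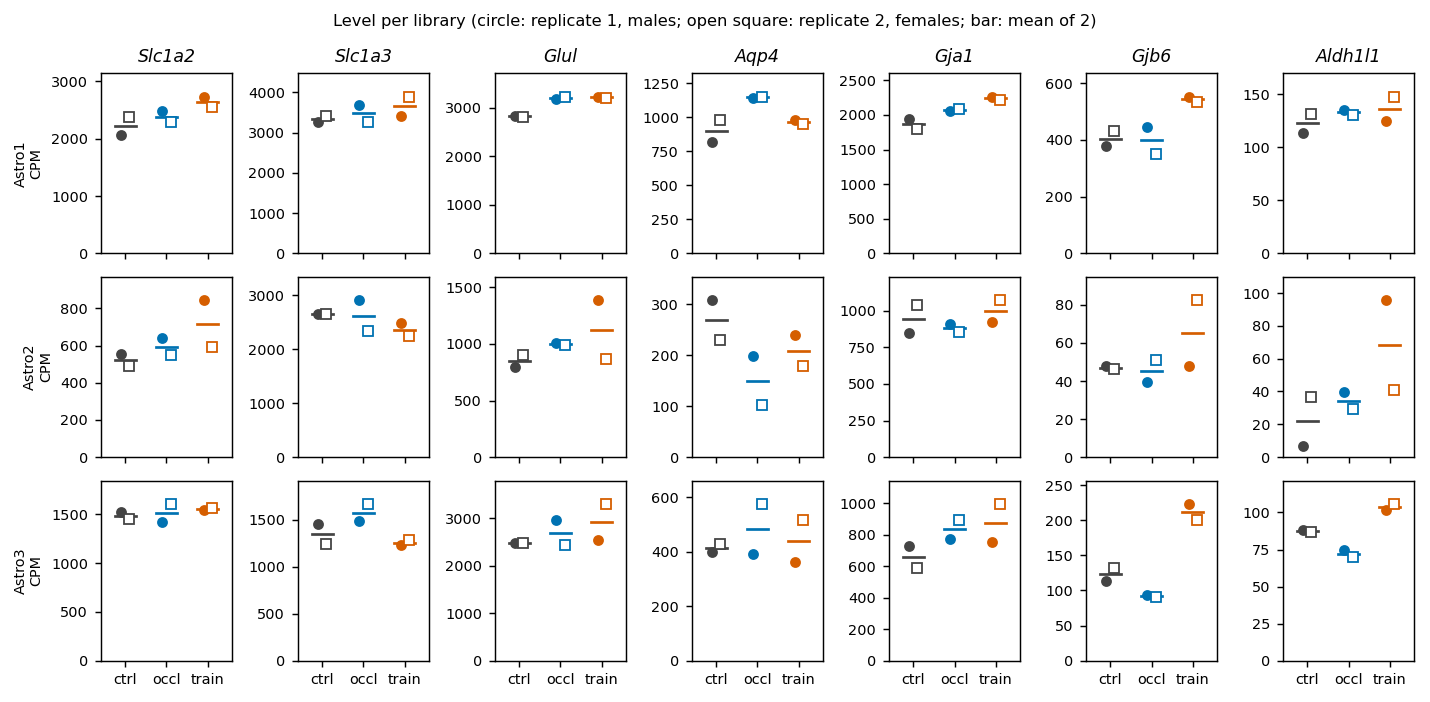
Each panel gives the CPM of 1 gene in the 6 libraries of Astro1 (top), Astro2 (middle) and Astro3 (bottom), with a circle for replicate 1, a square for replicate 2 and a bar at the mean of 2. The occluded symbols for Aqp4 are highest in Astro1 (1144 and 1151) and lowest on average in Astro2 (198 and 102), and the trained symbols for Gjb6 are highest in Astro1 and Astro3.

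In n13-AstrocyteLike 5 of the 7 genes had enough counts to be tested, and again none was called. Deprivation called 0 of 5 against 0.121% of 3313 genes, training 0 of 5 against 0%, and trained against occluded 0 of 5 against 0.453%, with 1, 1 and 2 members under an unadjusted p of 0.05, beside 173, 149 and 236 of all genes, and 0 by DESeq2. For training no gene at all was called by edgeR or DESeq2. Glul was 0.33 ± 0.16 higher in occluded than control libraries on the log2 scale (edgeR, adjusted p = 0.92) and -0.34 ± 0.16 in trained against occluded (edgeR, adjusted p = 0.645). In the same cells the red blood cell genes summed to 413 and 187 CPM in controls and 531 and 457 in occluded libraries, the reactive list to 174 and 212 against 225 and 283, and n13 made up 6.64 and 5.37% of annotated cells in controls and 3.46 and 2.196% in occluded. Lower in both occluded libraries were the sensory neuron markers, at 1968 and 2141 CPM against 2420 and 2430, the neuron markers, at 2630 and 1984 against 2882 and 2676, and the precursor markers, at 61.1 and 47.2 against 75.6 and 118. The median mitochondrial share of n13 cells was also lower, at 31.0 and 31.9% in controls and 26.9 and 27.2% in occluded libraries. The part of all these in the Glul values was not tested. Slc1a3 had 214 and 215 CPM in controls, 169 and 181 in occluded and 176 and 111 in trained, with a log2 fold change under training of -0.45 ± 0.21 (edgeR, adjusted p = 0.993), which was -1.004 without trained replicate 1 and -0.30 without trained replicate 2. Endothelial markers, at 364 and 411 CPM against 427 and 483, and precursor markers, at 69.9 and 32.6, were also lower in both trained libraries than in controls. Aqp4 in trained against occluded libraries had -1.07 ± 0.42 (edgeR, adjusted p = 0.463), from 11 and 16 UMIs in occluded and 29 and 7 in trained libraries, and this value was -1.66 without occluded replicate 1 and -0.45 without occluded replicate 2. Astrocyte markers outside the 7 genes, at 2459 and 2663 CPM against 2686 and 3408, and red blood cell genes, at 154 and 241, were lower in both trained than in both occluded libraries, and neuron markers, at 2802 and 2976, were higher. Microglia markers were also lower in both trained than in both occluded libraries, at 336 and 352 CPM against 362 and 685. The median mitochondrial share was higher, at 30.7 and 30.0% in trained against 26.9 and 27.2% in occluded libraries. The part of these lists and of the mitochondrial share in the Slc1a3 and Aqp4 values was not tested.

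**Figure D5:**
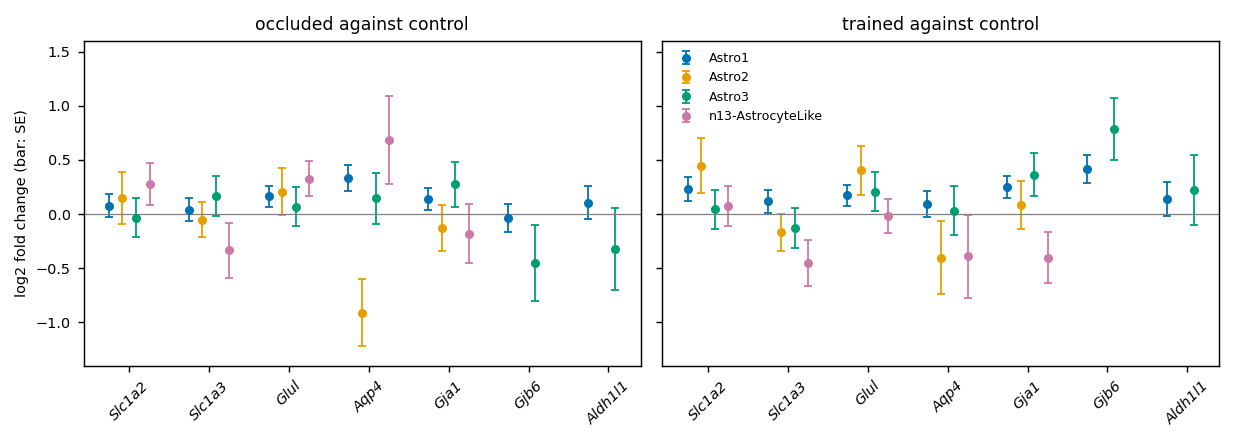
Points are log2 fold changes of occluded against control (left) and trained against control (right) libraries for each gene, with bars of 1 SE from edgeR, in Astro1, Astro2, Astro3 and n13-AstrocyteLike. The farthest from 0 are Aqp4 in Astro2 at -0.91 under occlusion and Gjb6 in Astro3 at 0.78 under training, and none of the points passed the adjusted threshold.

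The other genes of uptake and transport showed as few calls. Of the 47 listed genes, 39 were tested in the summed astrocytes, 36 in Astro1, 16 in Astro2, 26 in Astro3 and 18 in n13, and 0 were called in any of the comparisons by edgeR. At an unadjusted p under 0.05, occlusion gave 3 of 39 in the sum, 4 of 36 in Astro1, 3 of 16 in Astro2, 0 of 26 in Astro3 and 0 of 18 in n13, beside 517 of 10447, 460 of 9623, 114 of 2261, 138 of 3293 and 173 of 3313 genes in all. Training gave 4, 3, 3, 1 and 0 in the same order, beside 643, 694, 148, 110 and 149 genes. Trained against occluded gave 4 in the sum and 1 in n13, beside 942 and 236 genes, and of 33 genes tested for a difference between Astro1 and Astro2, 4 had such a p for occlusion and 5 for training, beside 324 and 423 of 8400. In trained against control Astro1 cells their median log2 fold change was 0.06, against 0.17 for the 7 genes and 0.00 over all genes tested. In occluded against control Astro2 cells it was -0.18, against -0.05 for the 5 members tested and 0.00 over all genes. The members' median in Astro2 was 0.02, 0.15 and 0.04 without control, occluded or trained replicate 2, with 7, 6 and 6 members tested. It stayed negative without each replicate 1.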

How the data were processed

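Single cells of 6 olfactory bulb libraries (Chromium Single Cell 3′ chemistry) were processed by the authors with Cell Ranger 2.0.0 to build mm10, per the submitters' processing notes, and clustered with Seurat 2.2.1 after a minimum of 200 genes per cell and removal of doublets. The authors deposited raw counts of UMIs per gene and cell, and an annotation with a mitochondrial fraction for each cell. No doublet caller was run here. The 1123 barcodes without a cluster were left out of the comparisons.

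Counts were summed per cluster and library and given as CPM of that sum. Before cells with a UMI were counted, each cell was thinned to 500 UMIs (seed 20). Groups were compared with edgeR 4.0.16 (TMM factors, filterByExpr, quasi-likelihood test, all 6 libraries in one fit, Benjamini-Hochberg adjustment over all genes tested, threshold 0.05), with DESeq2 1.42.0 as an alternative, in R 4.3.3. Cluster shares were compared with exact permutation tests (scipy 1.17.1). The differences between Astro1 and Astro2 were interaction terms in a fit over both clusters with the library as a term. The test was also run on simulated counts in which 200 genes were moved by a log2 value of 1. It recovered 57% of them in the summed astrocytes (10447 genes), 55.5% in Astro1 (9623) and 34.5% in Astro2 (2261). Recovery was 34% in Astro3 (3293) and 34% in n13 (3313), and each run gave 2 to 4 false calls. Smaller differences would thus often be missed among genes like those moved. Recovery was not measured for the members alone, so these shares do not say how often a change in a member would be missed.

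The members and lists were chosen with earlier results of these data known. The genes named were the 7 members, listed pathway genes with an adjusted p under 0.05 or a mean of at least 100 CPM in an astrocyte cluster, the 3 genes most like each member, and markers whose values stand beside a result. Of the genes this rule selects, 2 are not reported here. Promoters came from RefSeq, build GRCm38.p6, for 6 of 7 members. Differences in capture between clusters and in mitochondrial share alter CPM, since all genes share one total.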

Additional observations from a re-analysis of the deposited data

Results flagged for a closer look

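The 1123 barcodes that the deposited annotation placed in no cluster entered none of the comparisons, yet all 7 genes were seen in them above the limit that a count of 0 allows, 0.993 CPM (3 of their 3019633 UMIs, counting error only). Slc1a2 stood at 534 CPM, Slc1a3 at 929, Glul at 1608, Aqp4 at 191, Gja1 at 707, Gjb6 at 89.7 and Aldh1l1 at 29.8. Over all annotated cells the corresponding levels were 336, 569, 1511, 99.2, 482, 68.9 and 22.3 CPM. Their median depth was 2327 UMIs, against 1354 in annotated cells, and 59.9% of them held a UMI of at least 3 of the 7 genes. What these barcodes are was not tested.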

How the results depend on the processing

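None of the 7 genes was called in any of the 14 comparisons under any alternative run, except Aqp4 in the difference between Astro1 and Astro2 under occlusion, where leaving out 1 library in turn gave 0 to 1 members called and log2 values from 0.86 to 1.81. Log2 fold changes kept their direction and side of the threshold in 297 of 307 alternatives. Only values with an unadjusted p under 0.05 before any alternative, and all values against controls in Astro1, were counted. The other fold changes were left out of this count. The causes of the changes below were not tested. Leaving out 1 library reversed small values in Astro1: under occlusion Slc1a2 ranged from -0.0468 to 0.21, Slc1a3 from -0.0469 to 0.12, with -0.0167 without control replicate 1, Gjb6 from -0.21 to 0.12, with 0.08 without control replicate 2, and Aldh1l1 from -0.0341 to 0.23, and under training Aqp4 ranged from -0.0613 to 0.26.

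Counts of all genes called moved more. For occluded against control, trained against control and trained against occluded in summed astrocytes they were 2, 3 and 23, and in Astro1, for the first 2 of these, 1 and 16. With DESeq2 the 5 counts were 0, 4, 5, 0 and 5, with no filter 17, 45, 115, 12 and 53, and with 1 library left out 0 to 10, 1 to 43, 4 to 191, 0 to 9 and 2 to 45. Cells with at least 1000 UMIs gave 22 and mitochondrially encoded genes left out gave 5 for trained against control in the sum. In Astro2 the counts were 1 and 3, with 6 for training under RLE size factors, 5 without a filter, and 2 to 7 and 4 to 11 with 1 library left out. In Astro3 they were 1 and 1, with 0 and 0 by DESeq2 and in cells of at least 1000 UMIs, 3 and 3 without a filter, 0 for training without mitochondrial genes, and 1 to 3 and 1 to 4 with 1 library left out. In n13 they were 4, 0 and 15, with 0, 0 and 0 by DESeq2, 1, 0 and 6 in cells of at least 1000 UMIs, 4, 1 and 8 without a filter, and 2 to 25, 0 to 7 and 3 to 44 with 1 library left out. For the differences between Astro1 and Astro2 they were 3 and 1, with 0 and 1 by DESeq2, 2 and 2 without a filter, and 0 to 5 and 1 to 3 with 1 library left out.

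The replicate number was tried as a block. Same-numbered libraries deviated together weakly, with correlations of 0.12 to 0.18 in the sum, 0.11 to 0.17 in Astro1 and -0.01 to 0.06 in Astro3. The number also marks the sex of the pool, so the block stands for sex, and with 2 numbers sex and any other shared factor cannot be told apart. The replicate block called 0 members. It gave 7 genes for trained against control in the sum, 2 for occluded against control in Astro1 and 3 for trained against control in n13. No other count of genes called moved by over 1.5 times. For trained against occluded in the sum, 2 members instead of 1 had an unadjusted p under 0.05.

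Levels in Astro1 with mitochondrially encoded genes left out were 2741 CPM for Slc1a2, 3957 for Slc1a3, 3491 for Glul, 1138 for Aqp4, 2337 for Gja1 and 148 for Aldh1l1. As a mean over single cells Glul had 2751 and Aldh1l1 119, and in control libraries alone Glul had 2824 and Gja1 1868. Thinning to 300 UMIs gave 49.2% of Astro1 cells for Slc1a2, 62.9% for Slc1a3, 53.4% for Glul, 23.3% for Aqp4 and 45.2% for Gja1. Leaving out each library in turn for levels and shares was chosen after seeing the data. The small difference in the share of astrocytes reversed to -0.906 percentage points under occlusion with nonneuronal cells as the total and to -0.393 in cells of at least 1000 UMIs, and to 0.506 under training with nonneuronal cells as the total, and it was -1.23 under training in cells of at least 1000 UMIs. With 1 library left out it ranged from -0.0264 to 0.108 and from -0.497 to 0.023. Of the 3 genes most like each member, 0 to 3 were shared under Spearman correlation and 0 to 2 over nonneuronal clusters.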
